A study of Rattus norvegicus with 30 samples.

Results

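The comparison set lungs of newborn rats on day 14 of the experiment against lungs on day 1, within the arm labelled as kept at 21% O2 (room air). Its members were the 3 libraries labelled 21% O2 at day 14 and the 3 at day 1, 6 of the 30 libraries of the series, chosen by treatment and day and not by any measured value. The series holds 2 arms, labelled 21% O2 and 85% O2, with 3 libraries at each of 5 days (1, 3, 7, 10 and 14), as a rat model of the lung injury of preterm infants given oxygen. Per the labels, newborn pups were randomised between the arms. Nursing mothers were swapped between litters every 24 h, and the cages were opened for 30 min a day. The labels name no strain, sex, genotype or allele, and no agent other than oxygen. They state 12 rats per arm, while 15 libraries per arm were deposited. Whole lung without the trachea was rinsed, frozen and used for RNA extraction and poly(A) sequencing, so each library mixes every cell type of the lung. In such bulk tissue fewer cells of a type and less RNA per cell cannot be told apart. No label ties a library to an animal, so a p-value below measures the spread between these samples.

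The rat is born with a lung of wide saccules. In the weeks after birth its alveoli form by septation: myofibroblasts at the septal tips lay down elastin and collagen, the epithelium and capillaries extend over the new septa, and the double capillary layer of the immature septum later thins to a single sheet. Over the same period imprinted growth genes that are active before birth are switched down in many organs, circulating blood passes from fetal to adult red cells, and resident macrophages settle the air spaces.

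The 6 libraries held 15546177 to 16984261 counts. Levels are read counts scaled to library size after TMM normalization (CPM), in the order of replicates 1, 2 and 3. The labelled tissue was checked against lung markers. Sftpc, the surfactant protein C gene of alveolar type II cells, stood at 9590 to 16000 CPM, and the endothelial cadherin gene Cdh5 at 366 to 687 CPM. Mitochondrially encoded transcripts made up 2.71% to 3.03% of counts at day 1 and 3.33% to 3.77% at day 14, without overlap. The globin genes took 1.61% to 2.22% at day 1 and 0.3% to 1.11% at day 14. The Y-linked Kdm5d and Eif2s3y were at 0 in day 1 replicate 3 and day 14 replicate 2 and present in the other 4 libraries, so each group came from at least 2 animals and held the same mix. Day 1 replicate 2 stood apart. It carried Krt13, a keratin of squamous epithelium, at 111 CPM against at most 0.29 in the other day 1 libraries. It also carried the skeletal muscle genes Acta1 at 40.3 CPM and Myh3 at 39.3 CPM. Myh3 was high in day 14 replicate 2 too, at 27.6 CPM, where Acta1 was at 0.849. In the remaining libraries Myh3 stood at 0.734 to 2.17 CPM. The summed squamous list spanned 47.5 to 333 CPM at day 1 and 6.08 to 10.5 at day 14. Of its 7 tested genes 4 were lower at day 14, or 2 without day 1 replicate 2. The summed cardiac muscle list spanned 150 to 227 CPM at day 1 and 35.4 to 144 at day 14, with 6 of 9 tested genes lower. Without day 14 replicate 2 that count was 2, and without day 14 replicate 3 it was 1. The part of these tissues in the results below was not tested.

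The oxygen label was set against Cdkn1a, the cell-cycle inhibitor that p53 induces and that is known to rise in hyperoxic rodent lung. Cdkn1a (ENSRNOG00000000521 on chromosome 20, from 6351458 to 6358864) stood at 37.3, 45.1 and 45 CPM at day 1 and at 382, 462 and 447 CPM at day 14 in the 21%-labelled arm. The groups were far apart. Its means were 42.1 CPM at day 1 and 29.4 CPM at day 14 in the 85%-labelled arm. Gdf15, a stress-induced cytokine, stood at 6.21, 7.76 and 5.04 CPM at day 1 and at 130, 122 and 159 CPM at day 14, against means of 8.5 and 5.04 CPM in the 85%-labelled arm. These levels go against the treatment labels, so the libraries are named throughout by their label, and whether they breathed room air is not settled by the files. What follows is the course of the 21%-labelled libraries, and it is not read as the course of room-air lung.

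Of 35224 genes in the table, 17571 passed the filter on low counts. A call needed both a log2 change of 0.5 or more and an adjusted p below 0.05 (edgeR's quasi-likelihood test, Benjamini-Hochberg), and 3364 genes met it, 19.1% of those tested. Of the 3364, 1589 were higher at day 14 (9.04% of the genes tested) and 1775 lower (10.1%). Counts of list members below are to be read against these shares. Over all tested genes 5983 had an unadjusted p under 0.05. Among the 15133 protein-coding genes tested 2967 (19.6%) were called. The median log2 change over all tested genes was -0.03. The libraries of the groups did not overlap for 8349 genes (47.5%), and for 3300 (18.8%) of the tested genes they did not overlap and the gene was called. At the same cuts the authors' deposited table held 4340 calls, 2079 higher and 2261 lower, and 3159 of the 3364 genes were called there too, all with the same sign. Leaving out day 1 replicate 2 lowered the count to 2608.

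**Figure D1:**
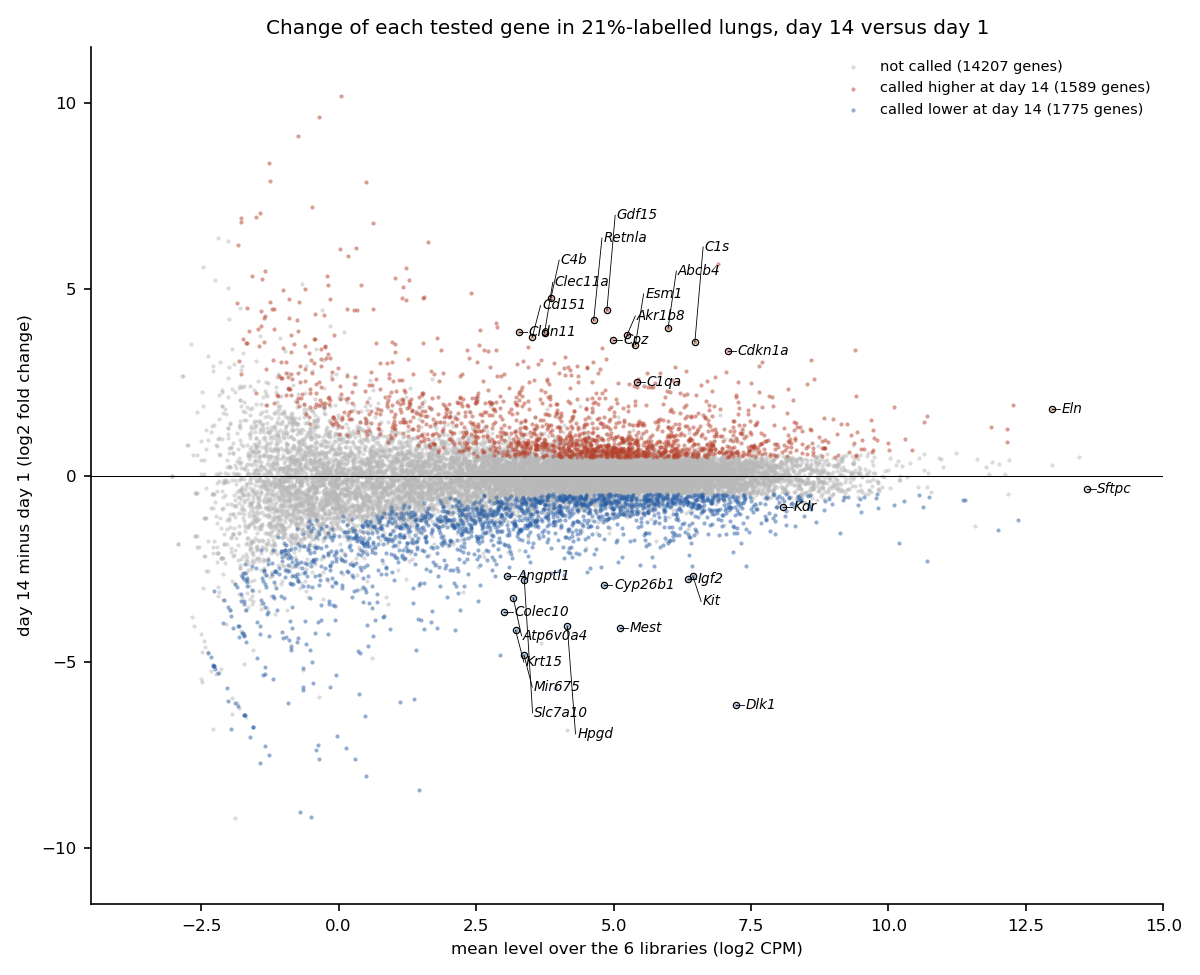
Change from day 1 to day 14 (log2 fold change, vertical axis) against mean level (log2 CPM over the 6 libraries, horizontal axis) for 17571 genes of the 21%-labelled arm, each point a gene. The 1589 genes called higher and the 1775 called lower spread over the whole range of levels, with Dlk1 among the lowest and C4b among the highest of those labelled.

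The 14 days were not of one piece. Between day 1 and day 7, 1931 genes (11%) were called, 867 (4.93%) higher and 1064 (6.06%) lower. Between day 7 and day 14, 2451 genes (13.9%) were called, 1177 (6.7%) higher and 1274 (7.25%) lower. List counts given for a step are to be read against the shares of that step. Both steps share the day 7 libraries, so their values are set side by side and not tested against each other. By list medians, cell division genes stood higher at day 7 than at either end, and type II cell and sterol synthesis genes lower. The medians of endothelial and macrophage genes moved mainly in the step from day 7 to day 14, endothelial genes down and macrophage genes up.

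**Figure D2:**
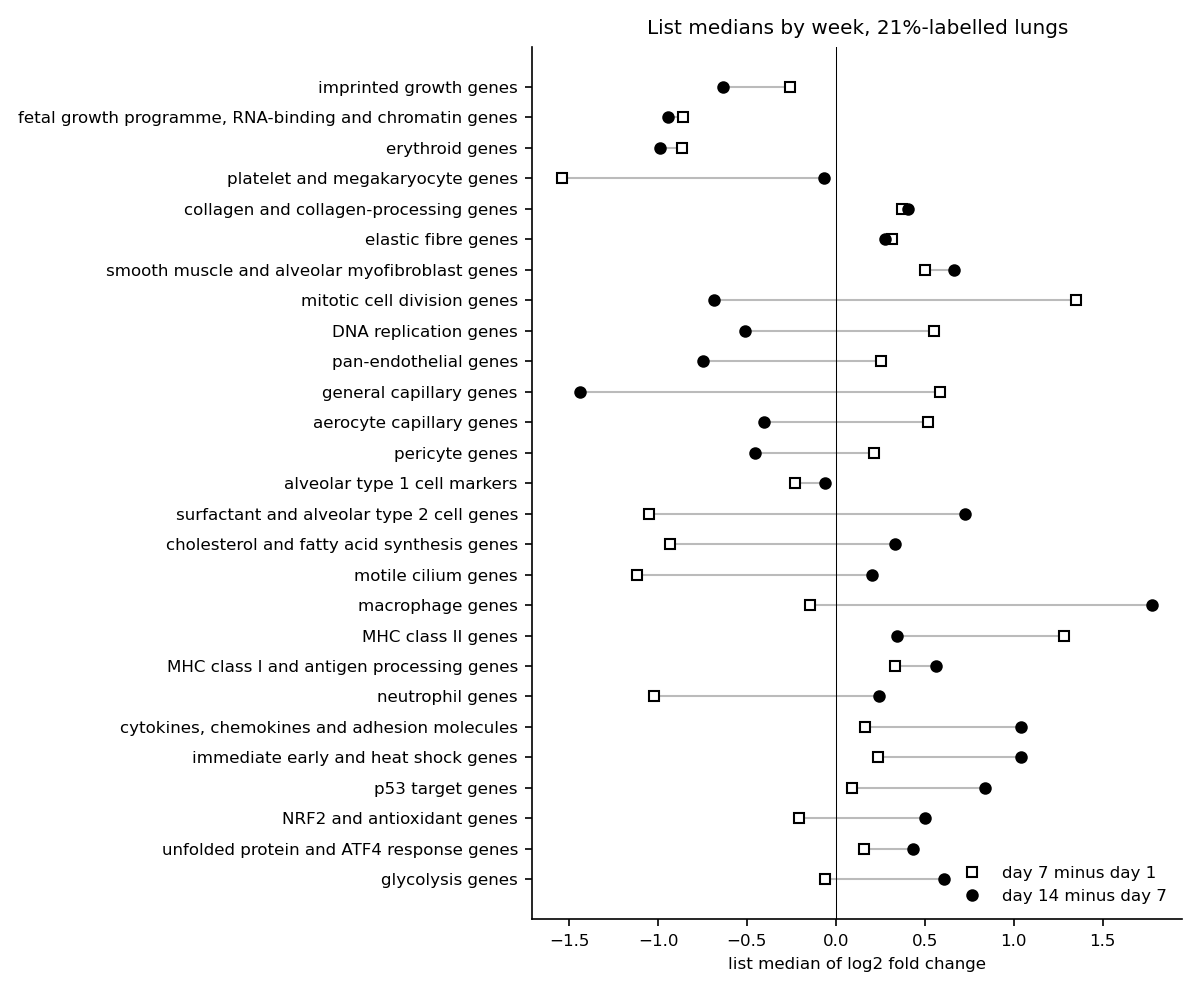
Median log2 change of each gene list between day 1 and day 7 (open squares) and between day 7 and day 14 (filled circles) in the 21%-labelled arm. The cell division list moved by 1.35 and then by -0.69, and the type II list by -1.05 and then by 0.73.

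Several growth genes of the fetal lung fell. Of 9 tested imprinted growth genes, 5 fell and none rose, with a median log2 change of -0.52 against -0.03 over all genes. Dlk1, an imprinted membrane protein of the Notch ligand type (ENSRNOG00000019584, chromosome 6 from 133552821 to 133583751 as the table gives it), showed the largest fall among well-expressed genes whose groups did not overlap. It stood at 1310, 1190 and 1400 CPM at day 1 and at 11.4, 15.6 and 27.8 CPM at day 14 (log2 change -6.15, SE 0.52, adjusted p = 1.9e-08). The lowest day 1 library lay far above the highest day 14 library, and the means in between were 177 CPM at day 3, 43 at day 7 and 20.8 at day 10. Igf2, the fetal insulin-like growth factor (chromosome 1 from 215828102 to 215846911), stood at 230, 217 and 200 CPM at day 1 and at 39.9, 29.3 and 24.8 at day 14 (log2 change -2.79, SE 0.61, adjusted p = 0.00167). Mest, an imprinted gene of mesoderm (chromosome 4 from 58053041 to 58063138), stood at 133, 146 and 151 CPM at day 1 and at 8.84, 6.12 and 10.2 at day 14, a log2 change of -4.09. For neither gene did the groups overlap. The cell-cycle inhibitor gene Cdkn1c stood at 130, 129 and 137 CPM at day 1 and at 45.2, 46.5 and 47.6 at day 14. Mir675, a microRNA precursor that lies within the imprinted H19 RNA, fell by 4.83 on the log2 scale, though reads of that RNA and of the precursor cannot be told apart. Peg3 was called lower by a small margin (log2 change -0.52), and the call was lost without day 1 replicate 2, day 1 replicate 3, day 14 replicate 1 or day 14 replicate 3, with changes of -0.46, -0.47, -0.45 and -0.39.

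Regulators of the fetal state moved the same way. Of 10 tested genes of that list 7 fell and none rose, with a median of -1.51. All 3 Igf2 mRNA-binding protein genes fell: Igf2bp1 by 2.32, Igf2bp2 by 1.60 and Igf2bp3 by 1.66 on the log2 scale. Igf2bp2 stood at 82.8, 85.6 and 77.6 CPM at day 1 and at 27.8, 24.6 and 28.5 at day 14, with a day 7 mean of 34.7, so most of its fall lay before day 7. The transcription factor gene Sox11 fell by 1.54, its fall lying between day 7 and day 14, and the chromatin protein gene Hmga1 fell by 1.10.

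Most red cell genes fell. Of 21 tested erythroid genes 17 fell and none rose, with a median of -2.17, and the summed list spanned 13000 to 19100 CPM at day 1 and 2840 to 9730 at day 14. Slc4a1, the anion exchanger of the red cell membrane, stood at 41.9, 52.9 and 38.3 CPM at day 1 and at 10.3, 5.21 and 5.38 at day 14 (log2 change -2.67, SE 0.40, adjusted p = 2.6e-05). The groups did not overlap. The spectrin gene Sptb of the membrane skeleton fell by 1.71 and the surface protein gene Ermap by 2.94. The embryonic globin gene Hbe1 stood at 3.81, 1.86 and 2.14 CPM at day 1 and at 0, 0 and 0.122 at day 14. Hbg1, another early globin, gave 33 counts over the day 1 libraries and 0 over the day 14 libraries, so it was at least 10.6-fold lower against a floor of 3 counts over the group, and the list's median was -2.17 with that bound too. Globin genes are close copies of each other and their split between copies is uncertain. Of 8 tested platelet genes 5 fell and none rose, with a median of -1.80. Tubb1, the platelet tubulin, stood at 13.3, 8.56 and 13.7 CPM at day 1 and at 1.38, 1.76 and 1.41 at day 14, and the collagen receptor gene Gp6, the integrin gene Itga2b and the von Willebrand receptor subunit gene Gp9 fell by 2.38, 1.46 and 1.84. Treml1 was called at -2.00, a call lost without day 1 replicate 3, day 14 replicate 1 or day 14 replicate 3 (changes of -1.74, -2.00 and -1.56).

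Many matrix genes rose. Of 24 tested collagen genes and collagen-processing genes 12 rose and none fell, with a median of 0.86, and the summed list spanned 18100 to 21200 CPM at day 1 and 31700 to 44300 at day 14. Col12a1, a collagen that decorates the surface of fibrils (chromosome 8 from 87040799 to 87158368), stood at 115, 185 and 115 CPM at day 1 and at 780, 1900 and 905 at day 14, a log2 change of 3.11. The lysyl hydroxylase gene Plod2, which prepares collagen for cross-linking, stood at 74.5, 80.5 and 77.6 CPM at day 1 and at 356, 543 and 401 at day 14 (log2 change 2.48, SE 0.22, adjusted p = 2.56e-08). Both genes were far apart between the groups, and in both day 14 replicate 2 was the highest library. Col18a1 of the basement membrane rose by 2.23, the prolyl hydroxylase gene P4ha2 by 1.48, the procollagen enhancer gene Pcolce by 1.45 and the main fibrillar chain gene Col1a1 by 1.31.

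Of 21 tested elastic fibre genes 9 rose and 3 fell, with a median of 0.72. Eln, the gene of tropoelastin (ENSRNOG00000001469, chromosome 12 from 24978483 to 25021863), stood at 3840, 4300 and 4870 CPM at day 1 and at 14000, 16900 and 13800 at day 14 (log2 change 1.78, SE 0.16, adjusted p = 2.45e-08). Every day 14 library lay above every day 1 library, and 1.37 of the rise lay between day 7 and day 14. Ltbp2, a microfibril protein that binds the same fibres, stood at 309, 327 and 352 CPM at day 1 and at 1070, 1970 and 1320 at day 14. The fibulin family genes Efemp1 and Efemp2 rose by 1.74 and 1.10 and the cross-linking enzyme gene Loxl3 by 1.07. The members that fell were Mfap2, a microfibril glycoprotein, Fbln2 and Fbln5, by 1.56, 1.48 and 0.55. The Fbln5 call was lost without day 1 replicate 1, day 1 replicate 3, day 14 replicate 2 or day 14 replicate 3 (-0.48, -0.50, -0.37 and -0.49). Mfap2 stood at 240, 213 and 230 CPM at day 1 and at 74.3, 63.6 and 93.7 at day 14. The gene of fibrillin 2, Fbn2, had a log2 change of -1.32 and was not called. Of 15 tested genes of myofibroblasts and smooth muscle 7 rose and none fell, with a median of 1.08. Acta2, smooth muscle actin, stood at 461, 432 and 432 CPM at day 1 and at 1080, 1020 and 701 at day 14. The actin-associated genes Tagln, Cnn1 and Lmod1 rose by 1.18, 1.26 and 1.59, and Fgf18, a growth factor of the forming septum, by 1.18.

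Most cell division genes rose by day 7 and many fell after it. Of 32 tested genes of mitosis 12 were higher at day 14 than at day 1 and none lower, with a median of 0.62. Without day 1 replicate 3 or without day 14 replicate 3 that number was 7. The day 7 libraries stood higher than either end: 29 of the 32 rose between day 1 and day 7 (median 1.35) and 17 fell between day 7 and day 14 (median -0.69), steps that share the day 7 libraries. Mki67, the proliferation antigen, stood at 86.1, 68.8 and 61 CPM at day 1 and at 98, 90.3 and 108 at day 14. Its groups did not overlap, and its log2 change of 0.46 (adjusted p = 0.118) was not called. Cdc20, which activates the ubiquitin ligase that ends metaphase, stood at 29.6, 20 and 17.9 CPM at day 1 and at 52.3, 35.2 and 48.8 at day 14 (log2 change 1.01, adjusted p = 0.00393). Ect2, an exchange factor of the dividing cell's contractile ring, stood at 18.2, 18.1 and 16 CPM at day 1 and at 31.5, 27.2 and 38.3 at day 14 (log2 change 0.89, adjusted p = 0.00703). For neither did the groups overlap. The kinesin genes Kif2c and Kif20a rose by 0.99 and 0.81 and the spindle gene Tpx2 by 0.75. None of the 26 tested genes of DNA replication was called from day 1 to day 14, with a median of 0.00. Between day 1 and day 7, 7 of them rose, and between day 7 and day 14, 8 fell.

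The letters TTTGAA are the core of the cell cycle homology element, a promoter motif known from mammalian genes of mitosis. The motif was searched on both strands in the RefSeq promoter window (250 bases before to 50 after the start, rat build GRCr8), and 21 of the 27 cell division genes with a single listed start held it (77.8%). Of all 24206 such promoters 4387 held it (18.1%), and of 20 DNA replication genes 1 did (5%), Mcm2. A match is a run of letters and not a measured binding site. The promoters of Cdc20 and Ect2 are shown, the called members with the smallest p among those that hold the motif. Each runs from 250 bases before the start to 30 after, with the motif in capitals. Both genes lie on the minus strand, Cdc20 at chr5:137255770-137256049 with 1 match 51 bases before the start, and Ect2 at chr2:111966597-111966876 with 2 matches, 155 and 3 bases before it.
Cdc20: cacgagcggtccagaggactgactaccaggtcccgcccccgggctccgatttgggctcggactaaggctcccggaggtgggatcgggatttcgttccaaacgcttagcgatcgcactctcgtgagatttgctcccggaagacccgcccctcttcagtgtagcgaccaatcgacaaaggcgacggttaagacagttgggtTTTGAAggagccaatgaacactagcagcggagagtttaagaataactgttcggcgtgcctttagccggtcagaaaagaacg
Ect2: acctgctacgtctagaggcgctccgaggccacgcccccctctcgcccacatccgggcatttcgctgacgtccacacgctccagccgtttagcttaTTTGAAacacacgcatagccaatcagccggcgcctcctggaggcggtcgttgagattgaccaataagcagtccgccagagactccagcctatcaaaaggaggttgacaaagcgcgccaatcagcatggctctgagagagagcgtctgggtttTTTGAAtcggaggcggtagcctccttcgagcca

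Several genes of the vessel wall fell, in the step after day 7. Of 16 tested endothelial genes 7 fell and 2 rose, with a median of -0.62. The summed list overlapped between the groups, at 3580 to 4060 CPM at day 1 and 3310 to 4000 at day 14. Between day 1 and day 7 the median was 0.25, and between day 7 and day 14 it was -0.75. Tek, the angiopoietin receptor (chromosome 5 from 113725717 to 113852799), stood at 192, 233 and 215 CPM at day 1 and at 54.3, 83 and 73.2 at day 14 (log2 change -1.60, adjusted p = 1.37e-07). The groups did not overlap, and in the 85%-labelled arm the means were 123 CPM at day 1 and 224 at day 14. Kdr, the main VEGF receptor, stood at 316, 370 and 428 CPM at day 1 and at 139, 227 and 257 at day 14 (log2 change -0.84, adjusted p = 0.0147), a call lost without day 1 replicate 3 (-0.71) or day 14 replicate 1 (-0.60). Cdh5 of the endothelial junction stood at 615, 668 and 687 CPM at day 1 and at 366, 376 and 427 at day 14. The adrenomedullin receptor gene Calcrl fell by 1.50 and the transcription factor gene Sox17 by 1.26. The members that rose were Eng, a TGF-beta co-receptor, at 402, 335 and 395 CPM at day 1 and 1030, 1010 and 939 at day 14, and Vwf, the von Willebrand factor gene, with a log2 change of 1.12.

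Within the capillary bed the general capillary cells, which renew it, and the aerocytes, which carry gas exchange, have their own genes. Of 8 tested genes of general capillary cells 4 fell and 1 rose, with a median of -0.90. The fall in the median lay between day 7 and day 14 (median -1.44). The summed list overlapped between the groups, at 1840 to 2210 CPM at day 1 and 1650 to 2240 at day 14. Gpihbp1, which holds lipoprotein lipase on the capillary wall, stood at 8.55, 10.9 and 10 CPM at day 1 and at 1.13, 0.545 and 0.367 at day 14, a log2 change of -3.84. Aplnr, the apelin receptor (chromosome 3 from 72540538 to 72544182), stood at 287, 298 and 366 CPM at day 1 and at 41.5, 146 and 83.4 at day 14, a log2 change of -1.81. The groups did not overlap for either gene. The receptor tyrosine kinase gene Kit fell by 2.70 and Nostrin, an adaptor of endothelial nitric oxide synthase, by 2.19, while the semaphorin gene Sema3c rose by 0.81. Of 8 tested aerocyte genes 2 rose and 1 fell, with a median of 0.46, while 9.04% of all tested genes rose and 10.1% fell. Apln, the ligand of the apelin receptor, stood at 119, 103 and 113 CPM at day 1 and at 406, 281 and 518 at day 14. Fibin rose by 1.30 and Prx, a scaffold protein, fell by 2.42. Of 13 tested pericyte genes 4 fell and 1 rose, with a median of -0.20: the mitochondrial subunit genes Cox4i2 and Ndufa4l2 fell by 2.58 and 1.95, the nitric oxide receptor subunit genes Gucy1a1 and Gucy1b1 by 1.54 and 0.65, and the channel gene Trpc6 rose by 0.97.

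Most genes of the surfactant-making type II cells fell by day 7 and many rose after it. Of 15 tested type II cell genes 13 fell between day 1 and day 7 (median -1.05), and between day 7 and day 14, 8 rose and 1, Etv5, fell (median 0.73). Over the whole course 2 rose and 6 fell, with a median of -0.37. The number lower was 3 in each fit that left out a library of the 6, so that count rests on all of them. Sftpc stood at 15200, 12100 and 16000 CPM at day 1 and at 11600, 9590 and 12400 at day 14, and was not called (log2 change -0.37, adjusted p = 0.468). The groups overlapped. Per length (FPKM, counts scaled by gene length and depth) it stood above the other genes compared, with 15800 FPKM at day 1 and 12300 at day 14, against 1210 and 4170 for Eln and 531 and 1620 for Sftpa1. Sftpa1, the host-defence surfactant protein A gene (chromosome 16 from 18716019 to 18719403), stood at 844, 846 and 1220 CPM at day 1 and at 2910, 2920 and 3010 at day 14 (log2 change 1.60), and its rise between day 7 and day 14 was 1.99. Sftpd rose by 0.54, a call lost without day 1 replicate 2, day 14 replicate 1 or day 14 replicate 3 (0.46, 0.51 and 0.51). The transcription factor genes Etv5 and Nkx2-1 fell by 1.36 and 0.89, and the mucin gene Muc1 by 0.73. The others called lower, the lipid transporter gene Abca3 (-0.78), Napsa (-0.57) and Slc34a2 (-0.65), each lost the call in all 6 fits that left out a library.

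Sterol synthesis, which feeds surfactant and membranes, followed a like course. Of 21 tested genes 16 fell between day 1 and day 7 (median -0.93) and 5 rose between day 7 and day 14 (median 0.33), among them Fasn, Scd, Fdps and Cyp51. From day 1 to day 14, 11 fell and 1 rose, with a median of -0.56, and without day 1 replicate 3 the number lower was 7. Insig1, the sterol sensor of the pathway (chromosome 4 from 342302 to 350515), stood at 230, 262 and 255 CPM at day 1 and at 108, 81.1 and 93 at day 14, a log2 change of -1.40. The enzyme genes Hmgcs1 and Dhcr7 fell by 0.93 and 0.78. Scd, the desaturase that makes oleate, stood at 59.6, 55.8 and 129 CPM at day 1 and at 219, 383 and 352 at day 14. Unlike most of the list it did not fall by day 7 (log2 change 0.65, not called). Its call from day 7 to day 14 was lost without day 7 replicate 1, 2 or 3, or without day 14 replicate 2 or 3. Of 17 tested type I cell genes 4 fell and 1 rose, with a median of -0.22: Cav1 by 0.86 and Emp2 by 0.80, both of the thin cell membrane, the transcription cofactor gene Hopx by 0.68 and Igfbp2 by 0.65. The Hopx call was lost without day 14 replicate 2 (-0.53), and the Igfbp2 call without day 1 replicate 3 or day 14 replicate 2 (-0.59 in both), and without day 14 replicate 2 the number lower was 2. The water channel gene Aqp5 was called higher at 0.65 with overlapping groups, and was not called without day 1 replicate 2, day 14 replicate 1 or day 14 replicate 3 (0.52, 0.44 and 0.62). Of 17 tested genes of ciliated cells 5 fell and none rose, with a median of -0.96. Tppp3, a tubulin-binding protein of cilia, stood at 402, 353 and 314 CPM at day 1 and at 189, 138 and 191 at day 14. The other members that fell were the axoneme genes Dnai2, Tekt2, Cfap52 and Drc1. The Tekt2 call (-0.62) was lost in 5 of the 6 fits that left out a library, all but the one without day 14 replicate 1 (-0.38 to -0.66), and with the replicate block in all libraries (adjusted p = 0.0535). The same call was also lost with no filter on low counts, in the 6 libraries alone and in the 15 libraries of the arm. The Drc1 call was lost in the same fits that left out a library as the Tekt2 call. The Cfap52 call was lost without day 1 replicate 1, day 1 replicate 2, day 14 replicate 2 or day 14 replicate 3. The Dnai2 call was lost without day 1 replicate 1 or day 14 replicate 3 and in the 6 libraries alone. The number of ciliated cell genes lower was 1 without day 1 replicate 1 or day 14 replicate 3. It was 2 without day 1 replicate 2 or day 14 replicate 2, and 3 without day 1 replicate 3.

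Most macrophage genes rose after day 7. Of 20 tested genes 13 rose from day 1 to day 14 and none fell, with a median of 1.57, and the summed list spanned 960 to 1050 CPM at day 1 and 1550 to 2490 at day 14. Between day 1 and day 7 the median was -0.15, with 3 genes higher (Csf1r, Adgre1 and Mmp12) and 3 lower (Spp1, Chia and Ctss). Between day 7 and day 14, 18 rose (median 1.78). C1qa, a chain of the first complement component made by tissue macrophages (chromosome 5 from 155261250 to 155264143), stood at 14.1, 19.9 and 20.6 CPM at day 1 and at 83.6, 108 and 116 at day 14, a log2 change of 2.50. In the 85%-labelled arm its means were 21.1 CPM at day 1 and 20.9 at day 14. C1qb and C1qc rose by 2.40 each. Adgre1, the gene of the F4/80 antigen, stood at 5.27, 7.01 and 5.16 CPM at day 1 and at 35.2, 55 and 69.5 at day 14, and the endotoxin co-receptor gene Cd14 rose by 1.69. The groups did not overlap for any of these. Marco, a scavenger receptor of alveolar macrophages, had a log2 change of 3.38 and was not called (adjusted p = 0.0716).

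Some antigen presentation genes rose, with calls that depended on single libraries. Of 10 tested class II genes 5 rose and none fell, with a median of 1.84, and of 12 tested class I genes 7 rose and none fell, with a median of 0.86. RT1-Da, a class II chain, stood at 32.9, 51.1 and 59.7 CPM at day 1 and at 101, 127 and 111 at day 14. The others of class II were RT1-Bb, RT1-Db1, RT1-DOa and RT1-DOb, with log2 changes of 1.79, 2.05, 1.89 and 2.21. RT1-DOa and RT1-DOb were near the floor. RT1-DOa stood at 0.062 to 0.232 CPM at day 1 and 0.424 to 0.752 at day 14. RT1-DOb stood at 0.0586 to 0.521 CPM at day 1 and 0.815 to 1.64 at day 14. The RT1-Bb call (adjusted p = 0.0477) was also lost with no filter on low counts, in the 6 libraries alone, in the 15 libraries of the arm, with the replicate block in all libraries (adjusted p = 0.051), with the mitochondrial covariate, under both gene length corrections and without the libraries of high mitochondrial share. The RT1-DOa call was also lost with no filter and with the mitochondrial covariate. The class II count was 2 without day 14 replicate 1 and 3 without day 1 replicate 1, day 1 replicate 2 or day 14 replicate 3. The class I count was 2 without day 1 replicate 2, 3 without day 1 replicate 1 or day 1 replicate 3, and 4 without day 14 replicate 1 or day 14 replicate 3. The rat RT1 genes are near copies of each other and differ between strains, so their counts are uncertain. Tap1, the peptide transporter, stood at 23.5, 34.1 and 36.6 CPM at day 1 and at 61.3, 51.5 and 60.8 at day 14.

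Neutrophil genes split. Of 11 tested 4 fell and 2 rose, with a median of -0.81. Those that fell belong to the granules made in the marrow: Camp by 2.97, Fcnb by 2.57, Ngp by 2.03 and Mpo by 3.38, the Mpo call being lost in 5 of the 6 fits that left out a library, all but the one without day 14 replicate 1 (-2.77 to -3.50). Lcn2, a granule protein that injured epithelium also makes, stood at 47.2, 31.6 and 56.3 CPM at day 1, at a mean of 15.1 at day 7 and at 208, 401 and 174 at day 14. The chemokine receptor gene Cxcr2 was higher by 1.95, a call lost without day 1 replicate 1, day 1 replicate 3 or day 14 replicate 2 (1.89, 1.80 and 1.70), which left 1 member higher.

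Of 22 tested inflammatory genes 12 rose and none fell, with a median of 1.36, and 10 rose between day 7 and day 14 (median 1.04). Cxcl1, which recruits neutrophils, stood at 8.2, 10.5 and 7.18 CPM at day 1, at a mean of 3.13 at day 7 and at 38, 33.3 and 92.2 at day 14. Ccl7 and Ccl2, which recruit monocytes, rose by 4.72 and 2.92. Ccl7 stood at 25.4, 2.485 and 11.7 CPM at day 14, against 0.645, 0.31 and 0.521 at day 1. Ccl2 stood at 28.9, 4.91 and 29.2 CPM at day 14, against 2.64, 2.17 and 3.48 at day 1. For both genes day 14 replicate 2 was low within its group. Csf1, the macrophage growth factor gene, rose by 1.39 and the adhesion receptor gene Selp of activated endothelium by 2.22. Il6 gave 0 counts in the day 1 libraries and 209 counts over the day 14 libraries, where it stood at 1.38, 1.52 and 9.91 CPM, at least 71.8-fold higher against a floor of 3 counts over the group, and with that bound the list's median was again 1.36. Of 16 tested immediate early and heat shock genes 11 rose and none fell, with a median of 1.91. Immediate early genes respond within minutes to growth factors and handling alike. Egr1 stood at 19.8, 25.1 and 23.4 CPM at day 1 and at 177, 87.3 and 198 at day 14, and replicate 2 was again the lowest of its group. Fos, Fosb and Junb rose by 2.70, 2.05 and 1.86, and the chaperone gene Hsph1 by 1.75.

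**Figure D3:**
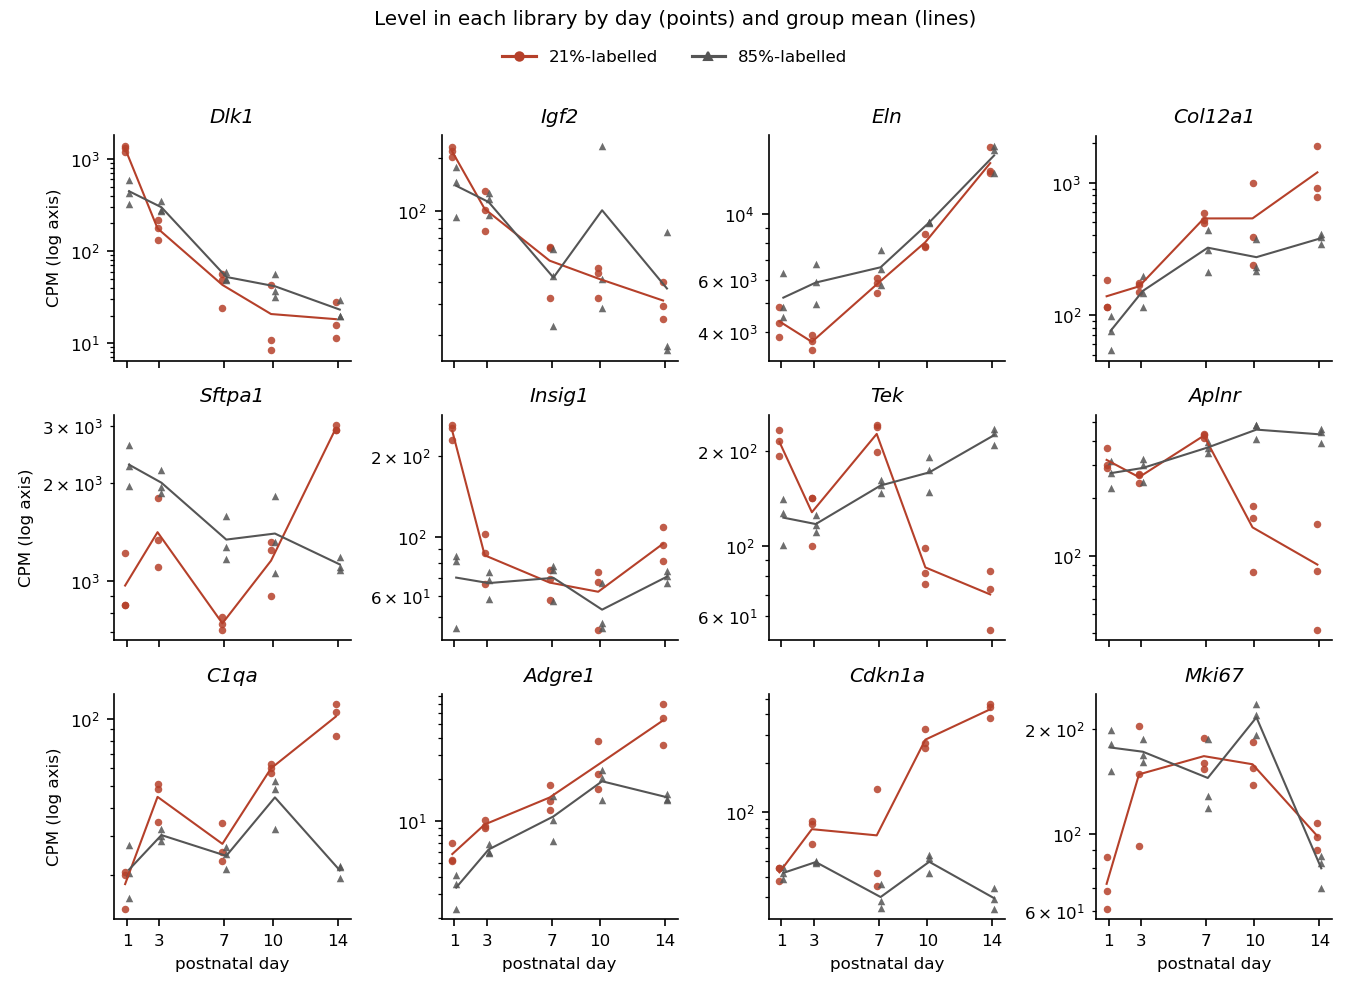
CPM of 12 genes (log axis) in each library of the 21%-labelled and 85%-labelled arms over the 5 days. In the 21%-labelled arm Dlk1 passes through means of 177, 43 and 20.8 CPM at days 3, 7 and 10, and Cdkn1a goes from 37.3 to 45.1 CPM at day 1 to 382 to 462 CPM at day 14.

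Many targets of p53 rose. Of 21 tested genes 11 rose and 2 fell, with a median of 0.99, and the summed list spanned 1250 to 1290 CPM at day 1 and 2360 to 2500 at day 14. Between day 1 and day 7 the median was 0.09, and between day 7 and day 14 it was 0.84. Cdkn1a had a log2 change of 3.34 (SE 0.33, adjusted p = 1.04e-07), and its means were 78.4 CPM at day 3 and 280 at day 10. At day 7 it stood at 138, 35 and 42.2 CPM, so replicate 1 alone lay above the day 1 level. Its change from day 7 to day 14 was 2.58, or 3.53 without that library. Gdf15 had a log2 change of 4.43 (SE 0.48, adjusted p = 4.2e-07), and its day 10 mean was 286 CPM. At day 7 it stood at 198, 41.3 and 55.3 CPM, and its change from day 1 to day 7 was 3.95, or 2.90 without replicate 1. From day 7 to day 14 the change was 0.48 and not called, or 1.56 and called without that library. Ccng1, cyclin G1, stood at 74.6, 71 and 68.8 CPM at day 1 and at 296, 323 and 311 at day 14. Eda2r, a death receptor of the TNF family, stood at 0.117, 0.682 and 0.174 CPM at day 1 and at 8.21, 23.5 and 14.7 at day 14. The groups lay far apart for all 4 genes. The nuclease gene Aen rose by 2.49 and Pmaip1, which promotes apoptosis, by 1.98. The members that fell were Sesn1, by 0.76, and the kinase gene Plk2, by 0.68, and 1 of them was called without day 1 replicate 2 or without day 14 replicate 1.

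Of 27 tested antioxidant genes 7 rose and none fell, with a median of 0.41. Between day 1 and day 7, 6 fell, and between day 7 and day 14, 10 rose. Sod2, the mitochondrial superoxide dismutase, stood at 82.8, 84.4 and 95 CPM at day 1 and at 278, 243 and 298 at day 14 (log2 change 1.64, SE 0.22, adjusted p = 6.35e-06). The extracellular enzyme gene Sod3 rose by 1.53. Slc7a11, the cystine importer that feeds glutathione, stood at 0.352, 0.745 and 0.463 CPM at day 1 and at 4.2, 6.67 and 8.13 at day 14. The haem oxygenase gene Hmox1 rose by 0.96 and Osgin1 by 0.91. Nqo1, a standard target of NRF2, had a log2 change of -0.47 and was not called. Of 16 tested glycolysis genes 7 rose and 1, Aldoc, fell (log2 change -1.43), with a median of 0.59. Pgk1 stood at 120, 113 and 120 CPM at day 1 and at 221, 215 and 208 at day 14, and Gapdh, Pkm and Eno1 rose by 0.97, 0.78 and 0.64.

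Of 24 tested genes of the unfolded protein response and amino acid response 12 rose and 1, the serine synthesis gene Psat1, fell (-0.69, a call lost without day 14 replicate 2), with a median of 0.57. Asns, asparagine synthetase, stood at 15.9, 16.8 and 16.3 CPM at day 1 and at 49.4, 62.6 and 56 at day 14. The one-carbon enzyme gene Mthfd2 rose by 1.57 and the stress transcription factor gene Atf3 by 1.46. Hsp90b1, which folds secreted and membrane proteins, stood at 579, 498 and 637 CPM at day 1 and at 853, 789 and 802 at day 14 (log2 change 0.51, adjusted p = 0.00241). Calr, the calcium-binding chaperone of glycoproteins, stood at 672, 588 and 747 CPM at day 1 and at 1110, 969 and 1030 at day 14 (log2 change 0.63, adjusted p = 0.00247). For neither did the groups overlap. The Hsp90b1 change fell short of 0.5 without day 1 replicate 2 (0.44), without day 14 replicate 1 (0.49) and with the mitochondrial share as a covariate (0.46). Pdia4 and Herpud1, of folding and disposal, rose by 0.58 and 0.73.

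Chaperone promoters are known for an endoplasmic reticulum stress element with the letters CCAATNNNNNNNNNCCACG. Searched on both strands in the same windows, it was held by 6 of 20 promoters of the list (30%), those of Calr, Canx, Creld2, Hsp90b1, Hspa5 and Xbp1, and by 18 of all 24206 (0.0744%). The promoters of Hsp90b1 and Calr are shown as the members whose values stand above, from 250 bases before the start to 30 after (RefSeq, GRCr8), with the fixed letters of each match in capitals. Hsp90b1 lies on the minus strand at chr7:23012264-23012543 with 2 matches, 176 bases before the start on the gene's strand and 72 before it on the opposite strand. Calr lies on the plus strand at chr19:40213117-40213396 with 1 match, 232 bases before the start on the opposite strand.
Hsp90b1: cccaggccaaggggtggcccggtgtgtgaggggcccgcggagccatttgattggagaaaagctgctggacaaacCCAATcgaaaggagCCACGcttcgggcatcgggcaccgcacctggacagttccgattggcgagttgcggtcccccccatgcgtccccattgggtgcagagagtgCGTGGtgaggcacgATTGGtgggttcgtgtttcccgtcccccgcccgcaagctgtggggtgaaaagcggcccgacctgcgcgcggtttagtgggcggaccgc
Calr: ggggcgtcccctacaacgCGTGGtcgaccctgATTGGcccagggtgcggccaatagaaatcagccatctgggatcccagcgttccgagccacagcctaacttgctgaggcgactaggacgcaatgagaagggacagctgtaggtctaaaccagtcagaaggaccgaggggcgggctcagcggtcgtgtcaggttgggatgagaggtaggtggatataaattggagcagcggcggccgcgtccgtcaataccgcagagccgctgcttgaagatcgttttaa

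**Figure D4:**
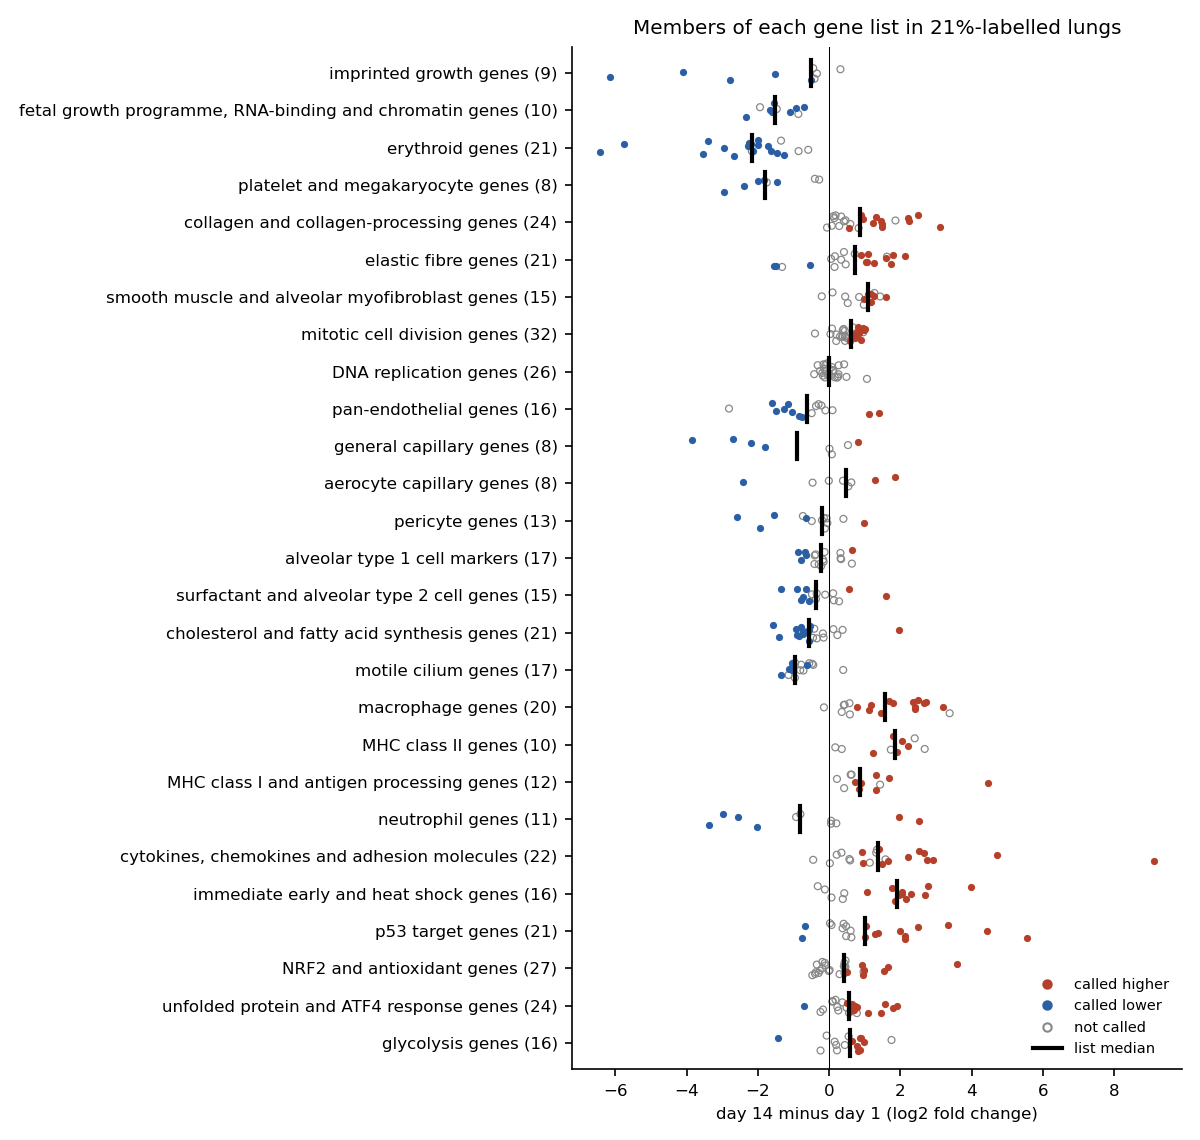
Log2 change from day 1 to day 14 of each tested member (points) of 27 gene lists in the 21%-labelled arm, with the list median as a line. The erythroid list has its median at -2.17 and the immediate early and heat shock list at 1.91. Lists such as type I cells at -0.22 lie close to the all-gene median of -0.03. The point farthest right is Il6 and the one farthest left Hbg1, fitted values that rest on a group at 0 counts.

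The largest rises outside these lists covered secreted and stress proteins. Retnla, a secreted protein of alternatively activated macrophages and airway epithelium, stood at 5.57, 4.65 and 9.04 CPM at day 1 and at 75, 210 and 61 at day 14. Esm1, a proteoglycan of endothelial tip cells, stood at 13, 13.6 and 14.3 CPM at day 1 and at 280, 60.9 and 126 at day 14. In both genes the day 14 libraries were far apart from each other, yet all lay above day 1. The complement genes C4b and C1s rose by 4.76 and 3.59, C4b having a close copy that makes its count uncertain. The other genes of this group were the phospholipid transporter gene Abcb4 (3.96), the tight junction gene Cldn11 (3.85) and the cytokine gene Clec11a (3.83). Also in it were the aldo-keto reductase gene Akr1b8 (3.77), the tetraspanin gene Cd151 (3.71) and the carboxypeptidase gene Cpz (3.63). The day 14 libraries were far apart for Cd151 too, at 88.1, 11.1 and 44 CPM, against 3.6 to 3.65 at day 1. At day 3 Cd151 stood at 26.4, 49.45 and 8.19 CPM. Among the largest falls, Hpgd, which degrades prostaglandins, stood at 70.4, 82 and 69.3 CPM at day 1 and at 2.57, 4.55 and 6.3 at day 14, with 3.56 of its log2 change of -4.04 lying between day 7 and day 14. Krt15, a basal cell keratin, stood at 27.5, 69.3 and 28.2 CPM at day 1 and at 2.26, 3.45 and 1.28 at day 14, its highest library being the one with other squamous keratins. Colec10, a collectin, fell by 3.65, the proton pump subunit gene Atp6v0a4 by 3.28, the retinoic acid-degrading enzyme gene Cyp26b1 by 2.93, the amino acid transporter gene Slc7a10 by 2.80 and the angiopoietin-like gene Angptl1 by 2.70.

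The same days were compared in the 85%-labelled arm to see where the course differed. The change from day 1 to day 14 differed between the arms for 7790 genes (44.3%, interaction term of the same model), in 3912 (22.3%) with the 21%-labelled change the higher. The 85%-labelled arm itself had 8981 calls (51.1%). Its day 1 libraries carried 5.31% to 19.1% mitochondrial counts, against 2.71% to 3.03% in the 21%-labelled day 1 libraries. With the mitochondrial share as a covariate 1985 genes differed, and without the 4 libraries of the series above 6% the number was 4105. The part of that share in the difference was not tested further. Mt2A, a metallothionein that binds zinc, stood at 7.15, 5.52 and 9.56 CPM at day 1 and at 39.4, 52.1 and 79.7 at day 14, against 85%-labelled means of 50.8 and 3.35. Prxl2a, a peroxiredoxin-like redox gene, stood at 40.1, 41.2 and 57.9 CPM at day 1 and at 343, 251 and 282 at day 14, against 85%-labelled means of 76.8 and 17.9. Dlk1 differed by -1.88, a difference not called with the covariate or without the libraries of high share. For Eln the difference was 0.18 (SE 0.22, adjusted p = 0.505) and for Igf2 it was -0.87 (SE 0.81, adjusted p = 0.395), and neither was called.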

How the data were processed

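Poly(A) RNA of whole rat lung was sequenced in 30 libraries, 10 groups of 3. The authors deposited a table of 35224 genes with raw counts, FPKM, gene length and their own comparisons. Counts are whole reads per gene, per the file headers. FPKM values, per the file headers, equal the deposited count per length and per scaled library size within a relative deviation of 1e-07. The authors' comparison of the same groups holds normalized group means (a signal scale), a log2 ratio of them and a p-value and adjusted p-value, deposited with no tool named. It was used for the overlap of calls and nothing else. The aligner, counter and rat build (not given in the sources used here) could not be checked. Mouse builds (GRCm38 and mm10) appear in the submitters' processing notes, while the 32883 Ensembl identifiers are those of rat. Gene positions are those of the deposited table.

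Counts were analysed in R 4.3.3 with edgeR 4.0.16 (filterByExpr, TMM, glmQLFit, glmQLFTest, limma 3.58.1). A single model held all 30 libraries as 10 group means, with 20 residual degrees of freedom, so the spread is estimated over all groups. p-values were adjusted by Benjamini-Hochberg over the 17571 genes tested. The standard error is the size of the log2 change divided by the square root of F, an approximation. Called means an adjusted p under 0.05 and a log2 change of at least 0.5. For a group at 0 counts, a floor of 3 counts over the group gives the bound of the fold. On simulated counts for this comparison (17298 genes), the test found 31 of 99 genes with a true log2 change of 1. It found 69 of 99 with one of 2, all in the right direction, with 4 false calls. No other gene was changed in the simulation, while 19.1% were called in the data. The adjusted cut therefore differed, and these rates are not those of the data. The depth of 15546177 to 16984261 counts in the 6 libraries leaves genes under a few CPM with wide errors, and these errors cover counting and library spread in 3 libraries per group.

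The members and the 49 gene lists (777 entries) were chosen with earlier results of these data known. The genes named are called genes with non-overlapping groups and a log2 CPM averaging 3 or more, the 12 that rose and the 12 that fell most, up to 5 members of each described list by p, Cdkn1a, Gdf15, Sftpc, Eln, Kdr, Mki67 and Igf2, and the 6 largest differences each way between arms. Other genes named, such as Mfap2, Fbln2, Fbln5, Fbn2, Col1a1, Vwf, Abca3, Marco, Il6, Hbg1, Eda2r, Sesn1, Plk2, Nqo1, Hsp90b1, Calr, Mpo, Psat1, the members of lists named at a single step and the genes of lists set out among the other observations, were chosen after their values were seen. A few genes that the rule names are not reported here. Promoters came from the RefSeq table (GRCr8) by symbol, and 13695 of 16008 tested symbols are in the RefSeq gene table. Alternatives covered scaling, filters, the libraries fitted, a replicate block, mitochondrial share, gene length, thresholds, DESeq2 1.42.0 and leaving out each library.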

Additional observations from a re-analysis of the deposited data

Results flagged for a closer look

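The change from day 1 to day 14 was set against the same change in the 85%-labelled arm, by the interaction term of edgeR's model, for 36 genes. Of the 28 that were named for another reason it differed for 20. Most of those 28 were named for the size of their 21%-labelled change, which is part of this difference. The other 8 were chosen for the size of the difference itself. The values and counts of both sets are therefore a description. The genes whose difference was called, 28 in all with the chosen 8, are listed below, and for 6 of them both arms were called, in opposite directions. Values below are the 21%-labelled change minus the 85%-labelled change on the log2 scale. Among other named genes, picked from the lists by the p of their 21%-labelled change, 80 of 127 differed. Over all genes 44.3% did.

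The difference was positive for Gdf15 (5.18), Retnla (6.73), Abcb4 (2.49), Clec11a (1.18), Akr1b8 (3.86), Cpz (2.0), C1s (1.86), Esm1 (3.24), Cdkn1a (3.86), Mki67 (1.61) and Sftpc (2.09). It was also positive for the metallothionein genes Mt2A (6.86) and Mt1 (4.80) and for Prxl2a (4.75). It was negative for Dlk1 (-1.88), Mest (-2.71), Hpgd (-4.83), Colec10 (-2.10), Cyp26b1 (-1.70), Slc7a10 (-2.24), Kit (-3.71), Angptl1 (-2.82) and Kdr (-2.56). It was also negative for the cardiac myosin gene Myh6 (-11.12), Lifr (-5.61), Scube2 (-5.60), Selenbp1 (-5.41) and Pdzd2 (-4.50). Myh6 stood at 21.9, 40.5 and 53 CPM at day 1 and at 0, 0.182 and 0.122 at day 14, so its fitted value rests on a group near 0.

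The 85%-labelled day 1 libraries carried 5.31% to 19.1% mitochondrial counts. With that share as a covariate 17 of these 28 genes were called, and C1s, Dlk1, Mest, Cyp26b1, Sftpc, Mki67, Myh6, Lifr, Scube2, Selenbp1 and Pdzd2 were not. Without the 4 libraries above 6%, which left 26 libraries and 1 in the 85%-labelled day 1 group, 23 were called, and Dlk1, Cyp26b1, Sftpc, Myh6 and Selenbp1 were not. Sftpc had a difference of -0.19 with the covariate. The share's part in these differences was not tested further. For C4b, Cldn11, Cd151, Mir675, Krt15, Atp6v0a4, Igf2 and Eln no difference was called.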

How the results depend on the processing

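From day 1 to day 14, 3364 genes were called, and the count lay between 3057 and 4490 under other scalings, filters, sets of libraries, covariates and DESeq2's test (3646). A larger size moved it: with a log2 change of at least 1 it was 1931 (854 higher, 1077 lower), and with a test against a change of 0.5 (glmTreat) 1493 (723 higher, 770 lower), both cuts being stricter by construction. Leaving out each library gave 2608 to 2878 calls (1294 to 1556 higher, 1207 to 1417 lower), of which 2482 to 2627 were among the 3364. For day 7 against day 1 that range was 1232 to 1425, the lowest without day 7 replicate 1, and for day 14 against day 7 it was 1810 to 2165. The difference between arms gave 6763 to 9009 calls, 1985 with the mitochondrial share as a covariate and 4105 without the libraries above 6%, and the cause was not tested. In the change from day 1 to day 14 no named gene changed direction. Over the fits that left out a library, 62 of the named genes' values for that change lost the call. Under the other settings 29 lost and 23 gained it. With the mitochondrial share as a covariate Sftpc was called lower (-0.65), and likewise with each library's correlation of counts with gene length as a covariate (-0.51). Some values of the single steps and of the difference between arms did change sign. From day 1 to day 7 the Cdkn1a change ran from -0.17 to 1.06 over the fits that left out a library. The Sftpc difference between arms was 2.09, and -0.19 with the mitochondrial covariate.

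Same-numbered libraries of the days are not known to be paired. Their deviations correlated at 0.197, 0.0726 and -0.03, and not every library correlated best with its own number. With the replicate block 3203 genes were called, 3176 of them among the 3364, and with the block in the 6 libraries alone 4318. Without the block the 6 libraries alone gave 4044. In that blocked fit Aplnr, Cd151, Hmox1, Lcn2, Retnla, Vwf, Cd22, Cma1 and Msln were not called, and with the block in all libraries Abca3, Slc34a2, RT1-Bb, Tekt2, Cyp1a1, Dbp, Ifit1 and Krt13 were not.

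Depth limits the genes under a few CPM, among them Hbe1, Hbg1, Il6, Slc7a11, RT1-DOa and RT1-DOb. Whether the 21%-labelled animals breathed room air was not tested. The mitochondrial share, cardiac and squamous genes moved with the day, and their part in the results was not tested.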

Other observations

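Genes that shape the lung before birth were mixed. Of 20 tested morphogen and patterning genes 5 fell and 2 rose, with a median log2 change of -0.39. Over all genes the median was -0.03, with 10.1% called lower and 9.04% higher. The number of these genes that rose was near that share. Foxf1, a transcription factor of lung mesenchyme and capillaries, stood at 379, 382 and 478 CPM at day 1, at a mean of 453 at day 7 and at 147, 189 and 246 at day 14. Wnt2, a mesenchymal ligand needed for lung specification in the mouse, stood at 32.2, 41.1 and 36.8 CPM at day 1 and at 13.4, 7.7 and 16.7 at day 14. Both fell after day 7 and neither had overlapping groups. Tbx5, Foxp2 and Sox9 fell by 0.78, 1.06 and 2.32, and Wnt5a and Fgf9 rose by 0.79 and 1.81. Without day 1 replicate 2, day 14 replicate 2 or day 14 replicate 3 the number higher was 1. The hedgehog receptor and target gene Ptch1 stood at 145, 167 and 157 CPM at day 1, at a mean of 287 at day 7 and at 96.6, 145 and 122 at day 14, and was not called over the whole course (-0.37).

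Several sodium uptake genes, Scnn1a, Scnn1b and Atp1b1, fell by day 7 and rose after it. The channel subunit gene Scnn1a stood at 337, 407 and 353 CPM at day 1, at a mean of 113 at day 7 and at 321, 348 and 314 at day 14. Its change was -1.70 between day 1 and day 7 and 1.54 between day 7 and day 14, steps that share the day 7 libraries. All 3 called genes of the 9 tested glucocorticoid-responsive genes rose, Dusp1 by 1.08, Mt1 by 1.48 and Mt2A by 2.94, with a median of 0.49, in every fit that left out a library.

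Lymphocyte genes were low in sum. The T and NK cell list summed to 22.6 to 29.8 CPM at day 1 and 52.8 to 88.5 at day 14. The B cell list summed to 19.1 to 38.2 CPM at day 1 and 14.5 to 19.6 at day 14. Of 17 tested T and NK cell genes 3 rose (Cd4, Prf1 and Zap70) and 1 fell, with a median of 0.67. Without day 14 replicate 1 the number higher was 2. Cd4, which rat macrophages also carry, stood at 5.21, 9.18 and 6.84 CPM at day 1 and at 31.7, 60.2 and 59.9 at day 14. Of 11 tested B cell genes 1 rose (Cd22) and 3 fell (Cd79b, Pax5 and Ighm), with a median of -0.89. The number lower was 1 or 2 in each fit that left out a library. Of 8 tested mast cell genes 3 rose (Cpa3, Cma1 and Hpgds) and 2 fell (Hdc and Gata2), with a median of 1.20. The number higher was 2 without day 1 replicate 2, day 1 replicate 3 or day 14 replicate 2.

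Many calls in the remaining lists depended on a single library. Over all tested genes 9.04% were called higher and 10.1% lower. Of 23 tested interferon-induced genes 3 rose, Ifit1 and Ifit2 among them, and 2 fell (Mx2 and Usp18), with a median of -0.13. Of 28 nuclear genes of oxidative phosphorylation Cycs rose, and in 4 of the 6 fits that left out a library none did. Of 15 clock genes 2 rose (Arntl and Clock) and 3 fell (Npas2, Nr1d2 and Dbp), with a median of -0.01, the number lower being 0 or 1 in every fit that left out a library. Of 16 genes of xenobiotic metabolism 2 rose (Ephx1 and Ahr) and 3 fell (Cyp1a1, Cyp2s1 and Fmo1), the number lower being 0 to 2 in those fits. Ephx1, epoxide hydrolase, stood at 67.4, 71 and 68.9 CPM at day 1 and at 164, 159 and 153 at day 14. Of 10 lipofibroblast genes Fabp4 and Fgf10 fell, of 11 fluid transport genes Sgk1 rose and Aqp4 and Nedd4l fell, and of 12 airway secretory genes Pigr rose and Cldn10 fell. Of 7 lymphatic genes Ccl21 and Mmrn1 rose, with 1 called without day 1 replicate 2, day 1 replicate 3 or day 14 replicate 1. Among lists of other tissues Msln of mesothelium and Scg5 of neuroendocrine cells rose and S100b of nerve, Rag1 of thymus and Sox9 of cartilage fell. Ddx3y, listed as Y-linked, fell too, a call lost without day 14 replicate 3. It is placed on chromosome 13 in the deposited table and was highest (2.43 CPM) in day 1 replicate 3, where Kdm5d and Eif2s3y were at 0, so its counts did not follow the Y chromosome. None of 9 skeletal muscle genes was called.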
